A study of Homo sapiens with 6 samples.

Results

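The genes of the TGF-beta and BMP pathways examined here are 56 genes for ligands, ligand-binding proteins, receptors, SMAD proteins, inhibitors, secreted antagonists, ID targets and the matrix protein TGFBI. They were chosen by gene symbol, and all 56 were found among the 60504 genes of an RNA-seq table. The cells were WM164, a human melanoma cell line with the genotype BRAFV600E. EV cells carried an empty expression vector and HDAC8 cells carried a vector for HDAC8, a class I histone deacetylase, with 3 libraries in each group. Both kinds of cell were transfected with their plasmid and then kept in hygromycin. The sources used here do not say which promoter drove HDAC8, whether a group grew from 1 clone or whether the libraries came from separate cultures, so p-values measure the spread between these libraries and no more.

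Ligands of this superfamily are secreted, and most, though not all, bring type I and type II receptor kinases together. The type I receptor then phosphorylates SMAD proteins that enter the nucleus with SMAD4. TGF-beta, activin and nodal act through SMAD2 and SMAD3, while the BMPs act through SMAD1, SMAD5 and SMAD9. TGF-beta leaves the cell in an inactive form bound to latent TGF-beta binding proteins, BMPs are held back by secreted antagonists such as noggin, and the ID genes are textbook targets of BMP signaling. In the melanocyte lineage TGF-beta is known to restrain growth and pigment production.

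Total counts ranged from 34741083 to 42041462 per library. HDAC8 itself had 383.8 to 478.8 normalized counts in the EV libraries and 445.5 to 484.8 in the HDAC8 libraries, and these ranges overlapped (log2 fold change 0.15, SE 0.28, DESeq2 adjusted p = 0.856). The vector's transcript thus gives no check of the labels, and "HDAC8 libraries" below means those that carry this label. Mitochondrially encoded transcripts took 9.66% to 12.8% of all counts in EV and 4.46% to 7.94% in HDAC8 libraries, and HDAC8 replicate 1 differed more from the other HDAC8 libraries (chi-square over degrees of freedom of 112 and 167.6) than those differed from each other (27.55). All 8 melanocyte lineage markers were detected, and 5 of them were called lower. The S100B call was not made by limma-voom and was lost when any library other than HDAC8 replicate 1 was left out. The summed level of the 8 was 244961 to 328760 normalized counts in EV and 137044 to 182218 in HDAC8 libraries. Most of it came from PMEL (169800 to 247772 in EV and 89540.4 to 147944 in HDAC8 libraries). Markers of other cell types were present in part. The summed level was 2627.2 to 3085 in EV and 1526.2 to 2451.9 in HDAC8 libraries for 9 fibroblast genes (PDGFRA called higher by DESeq2 but not by edgeR or limma-voom nor without any 1 of 5 libraries, all but HDAC8 replicate 2, and DCN at 0). It was 97.5 to 203 against 133.9 to 263.3 for 6 endothelial genes (none called by DESeq2, edgeR or limma-voom, 0 with an unadjusted p under 0.05, CDH5 at 0). For 6 immune genes it was 2300.7 to 3302.4 against 4283.2 to 6164.6 (CD3E and CD68 called higher, MS4A1 at 0, and PTPRC at 0 in EV and at most 2.6 in HDAC8 libraries), and for 5 epithelial genes it was 2078.6 to 2768.2 against 3245.6 to 4407.1 (CLDN4 called higher, EPCAM at 0). Single genes made up most of each sum. LUM had 2205.0 to 2662.4 in EV and 1054.3 to 2157.9 in HDAC8 libraries, and VWF had 89.7 to 141.9 and 105.5 to 208.6. CD68 had 2286.0 to 3302.4 and 4191.6 to 6114.5, and KRT18 had 1702.3 to 2258.3 and 2462.1 to 3288.6. The part of these differences in the results below was not tested, and in bulk RNA fewer cells of a kind and less RNA per cell cannot be told apart.

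To determine how the pathway differed between EV and HDAC8 cells, all genes were tested together and the pathway genes were read from that test. Levels are given as normalized counts, which are the read counts of a gene divided by a size factor of its library. A gene is said to have risen or fallen when it had a DESeq2 adjusted p below 0.05 together with a log2 fold change (HDAC8 over EV) of 0.58 or more in either direction. Of the 56 genes, 53 had an adjusted p, and 9 of these rose while 9 fell. Across all genes, 5.57% of the 21021 tested were called higher and 5.44% lower, so that 11.0% were called in either direction, beside 34.0% of the pathway genes tested. The values of EV and HDAC8 libraries did not overlap in 36 of the 53 genes (67.9%), beside 29.1% of all genes tested. These shares were not matched for level. A mean of at least 50 normalized counts was reached by 46 of the 53 genes and by 14440 of the 21021. The median log2 fold change was 0.09 over the pathway genes and -0.0031 over all genes. Another 3 genes (TGFB1, INHBA and GDF11) passed the p threshold with a change under the minimum. Without HDAC8 replicate 1, DESeq2 called 8 pathway genes higher and 8 lower.

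**Figure D1:**
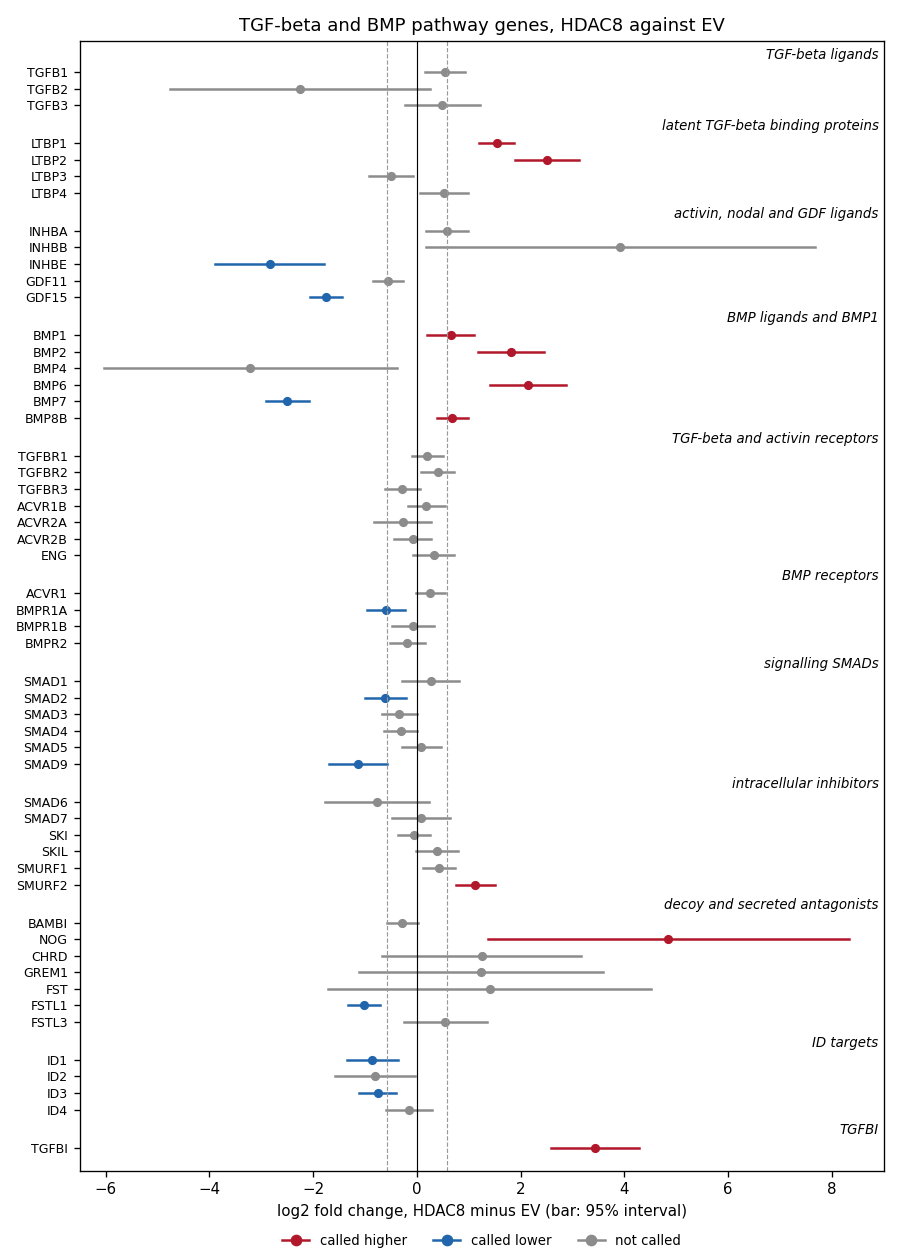
Log2 fold change (HDAC8 minus EV, x axis) of the 53 pathway genes with a DESeq2 adjusted p, ordered by role, with 95% intervals as bars and the minimum change of 0.58 as dashed lines. The 9 genes that rose are red, the 9 that fell are blue, and the receptors of TGF-beta and activin all sit between -0.28 and 0.40.

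The rises and falls were spread over the roles rather than kept to one. Latent TGF-beta binding proteins gave 2 rises, BMP ligands with BMP1 gave 4 rises and 1 fall, and activin, nodal and GDF ligands gave 2 falls. Signaling SMADs gave 2 falls, ID genes 2 falls, BMP receptors 1 fall, intracellular inhibitors 1 rise, and secreted antagonists 1 rise and 1 fall. The matrix protein TGFBI rose. The 3 TGF-beta ligands and the 7 tested receptors of TGF-beta and activin gave no call by DESeq2, edgeR or limma-voom, although 1 ligand and 1 receptor had an unadjusted DESeq2 p under 0.05.

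**Figure D2:**
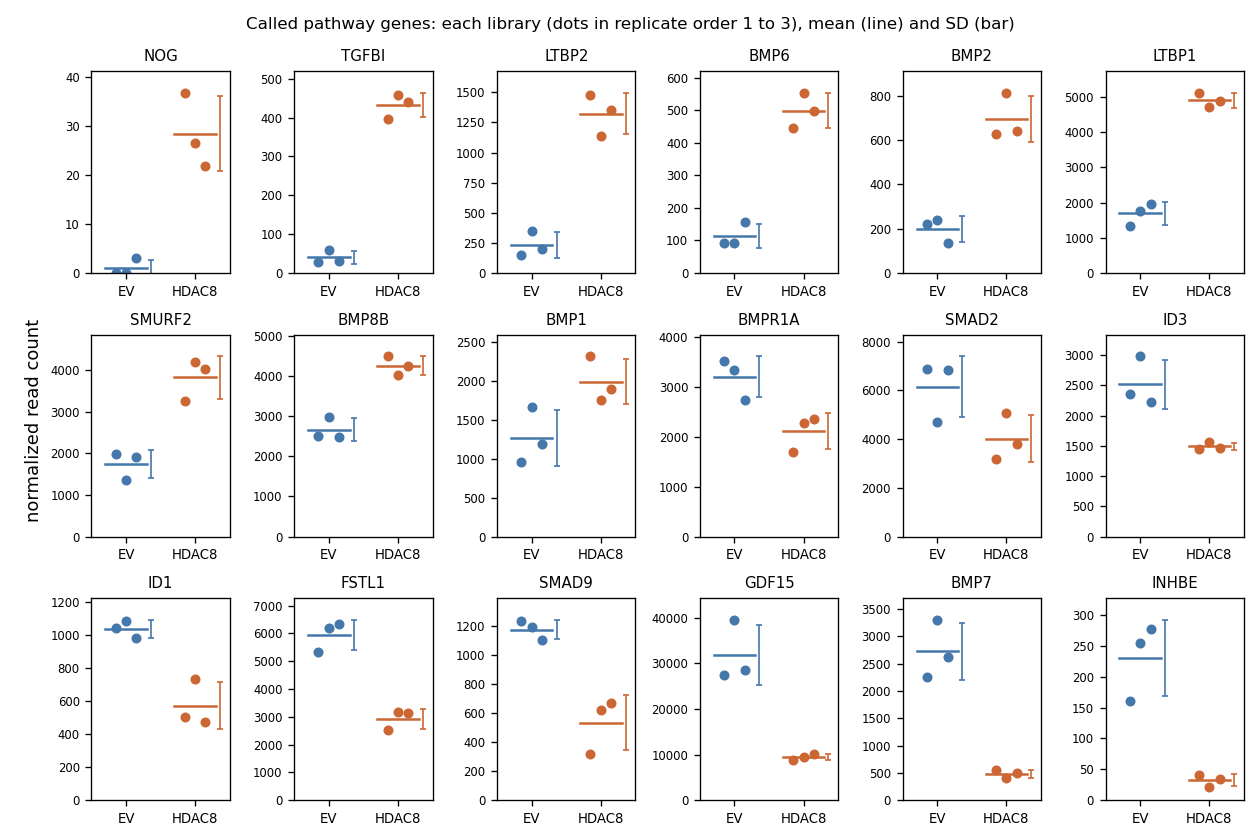
Normalized read count (y axis, starting at 0) of the 18 called pathway genes in each library, with dots for replicates 1 to 3, a line for the mean and a bar for the SD (n = 3 per group). EV and HDAC8 dots are apart in 17 panels, and in the SMAD2 panel the lowest EV library (4702.4) lies under the highest HDAC8 library (5089.0).

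The promoter sequences of the 2 rises and 2 falls at which the secreted and the nuclear end of the pathway are described most fully, LTBP1, TGFBI, ID1 and ID3, follow. Each line gives the 250 bases before the transcription start of RefSeq on the strand of the gene, from 5′ to 3′, with the position in GRCh38.p14. Capitals mark CAGAC, the SMAD binding element (GTCTG when it lies on the other strand), and GGCGCC, a BMP-responsive SMAD element that reads the same on both strands.
LTBP1 (chr2:32946703-32946952, plus strand): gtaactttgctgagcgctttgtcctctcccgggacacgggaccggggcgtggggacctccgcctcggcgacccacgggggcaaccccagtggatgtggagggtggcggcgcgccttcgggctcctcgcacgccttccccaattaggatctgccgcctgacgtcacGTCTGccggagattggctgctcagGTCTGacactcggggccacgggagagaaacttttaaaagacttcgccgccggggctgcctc
TGFBI (chr5:136028738-136028987, plus strand): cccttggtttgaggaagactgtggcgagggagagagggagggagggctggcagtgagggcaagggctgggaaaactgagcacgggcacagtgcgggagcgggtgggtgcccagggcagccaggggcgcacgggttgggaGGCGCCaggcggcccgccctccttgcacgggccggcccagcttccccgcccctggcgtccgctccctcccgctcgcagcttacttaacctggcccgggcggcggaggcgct
ID1 (chr20:31605039-31605288, plus strand): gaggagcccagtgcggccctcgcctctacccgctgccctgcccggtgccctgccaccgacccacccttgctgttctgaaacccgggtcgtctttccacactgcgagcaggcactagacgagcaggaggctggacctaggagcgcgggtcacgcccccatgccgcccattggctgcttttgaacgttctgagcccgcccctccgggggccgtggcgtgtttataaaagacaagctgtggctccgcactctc
ID3 (chr1:23559502-23559751, minus strand): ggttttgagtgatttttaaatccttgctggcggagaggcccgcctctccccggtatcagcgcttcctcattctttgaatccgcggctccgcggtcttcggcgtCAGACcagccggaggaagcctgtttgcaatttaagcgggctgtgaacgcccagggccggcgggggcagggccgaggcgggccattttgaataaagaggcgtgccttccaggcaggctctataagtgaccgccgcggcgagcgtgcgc
LTBP1 held GTCTG with its first base 85 and 61 bases before the start, TGFBI held GGCGCC at 111 bases and ID3 held CAGAC at 147 bases, while the ID1 window held neither run of letters. A promoter was found for 49 of the 56 genes, and none was matched for NOG, BMP2, BMP1, INHBE, SKI, BMP7 and ACVRL1. CAGAC lay in 17 of the 49 windows (34.7%), beside 37.8% of the windows of all 27305 genes, and GGCGCC lay in 16 (32.7%), beside 16.1%. GGCGCC lay in 2 of the 6 windows of genes that rose and in 2 of the 7 windows of genes that fell. Windows were not matched for their share of G and C, and its part in these shares was not tested. TGANTCA, the AP-1 element, lay in 2 windows (4.08%, beside 6.60% of all genes). CATGTG, an E-box that MITF can bind (CACATG on the other strand), lay in 0 of the 49 windows, beside 9.54% of all genes. These are matches of letters in a short window and are not binding sites.

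To compare levels between genes, normalized counts were divided by the length of the longest annotated transcript of a gene in kb, and values in this paragraph are on that per-kb scale. GDF15, a distant relative of TGF-beta known as a stress-induced secreted protein, had the highest level in both groups, with 21579 ± 4481 in EV and 6429 ± 463 in HDAC8 cells (SD, n = 3). ID3, an inhibitor of basic helix-loop-helix transcription factors, was next with 2652 ± 425 and 1570 ± 63, followed by BAMBI, a decoy receptor without a kinase, with 1603 ± 108 and 1320 ± 73. Below them in EV cells stood FSTL1 (1038 ± 93), SKI (881 ± 119) and BMPR2 (865 ± 43), and SKI and BMPR2 differed by less than their SD. BMP7 went from rank 8 in EV to rank 38 in HDAC8 cells and FSTL1 from rank 4 to 15, whereas LTBP1 went from rank 27 to 10 and SMURF2 from 26 to 11. The order depended on the length used. With the union of exons as length, BAMBI stood above ID3 in HDAC8 cells (1163 ± 64 and 997 ± 40), FSTL1 came to 632 ± 57 in EV cells and went from rank 7 to 20, BMP7 went from rank 11 to 41, LTBP1 from 24 to 8 and SMURF2 from 22 to 10, and GDF15 still had the highest level in both groups. At the other end BMP5 had no count in any library, which allows up to 3 counts per library, and NODAL and ACVRL1 were too low for an adjusted p.

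**Figure D3:**
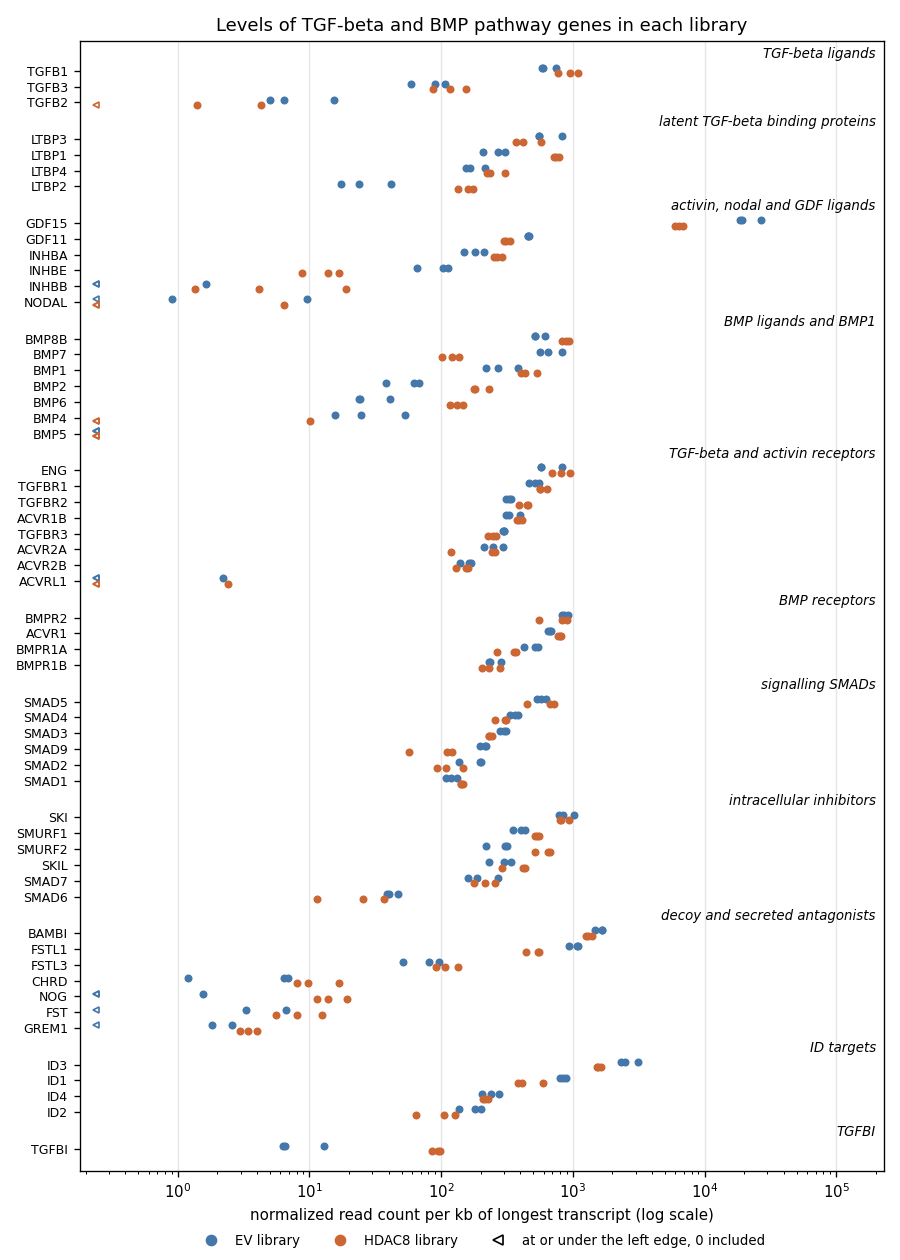
Normalized read count per kb of the longest transcript (x axis, log scale) of all 56 pathway genes in each of the 3 EV (blue) and 3 HDAC8 (orange) libraries, with open triangles for values at or near 0. GDF15 lies furthest right in every library, and the EV and HDAC8 dots are clearly apart for BMP7, LTBP2, BMP6, TGFBI and INHBE.

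TGF-beta itself was carried mainly by TGFB1. TGFB1 had normalized counts of 1628.5, 2088.3 and 1660.9 in EV and 2139.4, 3044.8 and 2649.4 in HDAC8 libraries. Every HDAC8 library was above every EV library, with a difference of 0.54 on the log2 scale (SE 0.19, DESeq2 adjusted p = 0.0430) that missed the minimum of 0.58. It came to 0.67 without HDAC8 replicate 1, 0.66 without EV replicate 2 and 0.58 with size factors from total counts, and the gene was then called. TGFB3 had 201.0 to 368.9 normalized counts in EV and 297.3 to 533.6 in HDAC8 libraries, which overlapped. TGFB2 was scarce in both groups, at 29.4 to 90.6 in EV and 0 to 25.0 in HDAC8 libraries, and its change of -2.25 had an SE of 1.28 (DESeq2 adjusted p = 0.284).

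Among the genes named as latent TGF-beta binding proteins, LTBP1 and LTBP2 rose. LTBP1 (chromosome 2, 32946953 to 33399509, plus strand) had 1340.1, 1759.5 and 1972.2 normalized counts in EV and 5118.5, 4710.1 and 4875.2 in HDAC8 libraries. All HDAC8 values were more than 2-fold above the highest EV value, and LTBP1 was 2.90-fold higher (95% interval 2.28 to 3.68) or 1.54 on the log2 scale (SE 0.18, DESeq2 adjusted p = 3.46e-16). LTBP2 (chromosome 14, 74498183 to 74612378, minus strand) had 147.9, 349.3 and 200.0 in EV and 1478.4, 1137.8 and 1354.7 in HDAC8 libraries. It was 5.69-fold higher (95% interval 3.73 to 8.68) or 2.51 on the log2 scale (SE 0.31, DESeq2 adjusted p = 8.89e-14), again without overlap. LTBP3 had 2681.3 to 3982.3 in EV and 1801.5 to 2783.3 in HDAC8 libraries, which overlapped, and LTBP4 had 775.3 to 1082.4 and 1130.7 to 1545.1, which did not, but neither was called (log2 fold changes -0.50 and 0.52, DESeq2 adjusted p = 0.118 and 0.133). Without HDAC8 replicate 1, which held the highest HDAC8 value, LTBP3 was called lower (log2 fold change -0.70, DESeq2 adjusted p = 0.00317).

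The activin, nodal and GDF ligands held the 2 falls of INHBE and GDF15. INHBE, the inhibin beta E subunit, had 160.4, 254.0 and 276.8 normalized counts in EV and 41.0, 21.5 and 33.8 in HDAC8 libraries. It was 7.16-fold lower (log2 fold change -2.84, SE 0.54, DESeq2 adjusted p = 5.29e-06), and the groups were far apart. GDF15 (chromosome 19, 18374731 to 18389176, plus strand) had 27542.6, 39516.6 and 28622.9 in EV and 8873.2, 9402.7 and 10229.6 in HDAC8 libraries. The HDAC8 values lay close together and well under the EV values, a 3.36-fold lower level (log2 fold change -1.75, SE 0.16, DESeq2 adjusted p = 1.08e-26). INHBA, the activin A subunit, had 895.5 to 1286.0 in EV and 1521.3 to 1748.2 in HDAC8 libraries (log2 fold change 0.57, DESeq2 adjusted p = 0.0440). GDF11, a close relative of myostatin, had 4009.9 to 4123.3 and 2634.5 to 2909.6 (log2 fold change -0.56, DESeq2 adjusted p = 0.00174). Both were just under the minimum change although their groups were apart, and INHBA was called without EV replicate 2 (0.71) or with size factors from total counts (0.62) and GDF11 without HDAC8 replicate 2 (-0.59). INHBB was seen at 0 to 5.2 in EV and 4.4 to 60.7 in HDAC8 libraries, of which HDAC8 replicate 1 gave the highest value, and was not called (DESeq2 adjusted p = 0.182) except without EV replicate 1 (DESeq2 adjusted p = 0.0334).

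The BMP ligands moved in opposite directions. BMP7 (chromosome 20, 57168753 to 57266641, minus strand), known for its part in kidney and bone formation, had 2259.7, 3298.7 and 2617.5 normalized counts in EV and 550.7, 409.7 and 487.9 in HDAC8 libraries. This was 5.64-fold lower, without overlap (log2 fold change -2.50, SE 0.21, DESeq2 adjusted p = 5.24e-29). BMP2 (chromosome 20, 6767686 to 6780246, plus strand), an inducer of bone formation, had 220.2, 241.0 and 134.0 in EV and 629.3, 814.2 and 643.6 in HDAC8 libraries. It was 3.51-fold higher (2.25 to 5.46) or 1.81 on the log2 scale (SE 0.33, DESeq2 adjusted p = 1.18e-06). BMP6 (chromosome 6, 7726099 to 7881728, plus strand), which drives hepcidin in the liver, had 92.3, 90.6 and 155.6 in EV and 443.8, 553.0 and 498.7 in HDAC8 libraries. It was 4.42-fold higher (2.67 to 7.30) or 2.14 on the log2 scale (SE 0.37, DESeq2 adjusted p = 3.34e-07), and for both genes every HDAC8 library was more than 2-fold above every EV library.

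BMP8B, which is best known from brown fat, had 2495.7, 2986.7 and 2485.5 in EV and 4484.9, 4023.9 and 4255.6 in HDAC8 libraries. Its EV level was close to that of BMP7, while in HDAC8 libraries it was the ligand with the highest count of this group. It rose 1.60-fold (1.30 to 1.98) or 0.68 on the log2 scale (SE 0.15, DESeq2 adjusted p = 2.46e-04). BMP8A is a close copy of BMP8B, so reads could be split between them, and it was listed at 0 to 3.7 in EV and 4.1 to 37.6 in HDAC8 libraries. BMP4 was scarce, at 30.4 to 101.8 in EV and 0 to 19.6 in HDAC8 libraries, and its change was not called by DESeq2 (log2 fold change -3.21, SE 1.44, adjusted p = 0.133) or edgeR. It was called lower by limma-voom (adjusted p = 0.0336) and, without HDAC8 replicate 3, by DESeq2 (adjusted p = 2.77e-04). BMP1, which is a metalloprotease that cuts procollagens and latent TGF-beta complexes and no BMP ligand, had 957.4, 1666.1 and 1184.1 in EV and 2314.7, 1755.4 and 1895.9 in HDAC8 libraries. EV replicate 2 came near the lowest HDAC8 value, and the rise was 1.57-fold (log2 fold change 0.65, SE 0.23, DESeq2 adjusted p = 0.0414). It was no longer called without EV replicate 1 (DESeq2 adjusted p = 0.274), EV replicate 3 (0.198), HDAC8 replicate 1 (0.116) or HDAC8 replicate 3 (0.109), nor by limma-voom (0.0542).

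Of the 8 receptors of TGF-beta and activin, ACVRL1 was at 0 in 4 of the 6 libraries, and none of the other 7 was called by DESeq2, edgeR or limma-voom. TGFBR1, the type I receptor of TGF-beta, had 3358.7, 3033.4 and 3593.7 normalized counts in EV and 3649.5, 4155.0 and 3664.3 in HDAC8 libraries, with a ratio of 1.15 (0.934 to 1.41, DESeq2 adjusted p = 0.490). Its groups came close without overlap. TGFBR2, its type II partner, had 1812.0 to 1958.4 in EV and 2263.4 to 2625.9 in HDAC8 libraries, a ratio of 1.32 (1.06 to 1.65, DESeq2 adjusted p = 0.0890). The coreceptors TGFBR3 (betaglycan) and ENG (endoglin) had ratios of 0.823 (0.652 to 1.04) and 1.25 (0.945 to 1.65). The activin receptors ACVR1B, ACVR2A and ACVR2B had overlapping groups and ratios of 1.13 (0.882 to 1.46), 0.827 (0.565 to 1.21) and 0.943 (0.734 to 1.21). True ratios anywhere within these intervals remain possible.

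Among the BMP receptors the type I receptor BMPR1A fell. BMPR1A had 3512.8, 3339.7 and 2732.7 normalized counts in EV and 1690.5, 2279.8 and 2355.4 in HDAC8 libraries. The groups did not overlap, HDAC8 replicate 1 was the lowest, and the level was 1.52-fold lower (log2 fold change -0.60, SE 0.19, DESeq2 adjusted p = 0.0150). The call was lost without EV replicate 1 (log2 fold change -0.53), EV replicate 2 (-0.57) or HDAC8 replicate 1 (-0.46) and with size factors from total counts (-0.57). BMPR2, the type II receptor, had 10252.2, 10038.9 and 11033.4 in EV and 6673.9, 10897.0 and 9978.1 in HDAC8 libraries. HDAC8 replicate 1 alone stood under the EV range by a wide margin, and the ratio was 0.879 (0.694 to 1.11, DESeq2 adjusted p = 0.613). ACVR1, another type I receptor, had 2866.9 to 3007.6 in EV and 3408.4 to 3617.0 in HDAC8 libraries and was not called (DESeq2 adjusted p = 0.268), and BMPR1B had a ratio of 0.947 (0.713 to 1.26).

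HDAC8 replicate 1 was the lowest HDAC8 library in 28 of the 46 pathway genes that averaged 50 normalized counts or more (60.9%), beside 42.6% of the 14440 genes tested at that level. The mitochondrial share was also lowest in this library.

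Of the signaling SMADs, SMAD9 and SMAD2 fell. SMAD9, a SMAD of the BMP branch, had 1227.9, 1188.9 and 1099.4 normalized counts in EV and 315.5, 618.6 and 666.4 in HDAC8 libraries. All HDAC8 values were under all EV values, and the level was 2.20-fold lower (log2 fold change -1.14, SE 0.29, DESeq2 adjusted p = 0.00136). SMAD2, which carries TGF-beta and activin signals, had 6894.6, 4702.4 and 6840.7 in EV and 3192.0, 5089.0 and 3786.3 in HDAC8 libraries. Its groups overlapped, and the fall of 1.53-fold (log2 fold change -0.61, SE 0.20, DESeq2 adjusted p = 0.0222) was not called without EV replicate 1, EV replicate 3, HDAC8 replicate 1 or HDAC8 replicate 3 (log2 fold changes -0.52, -0.53, -0.47 and -0.57). SMAD3 had 1819.3 to 2025.7 in EV and 1500.7 to 1560.5 in HDAC8 libraries, and the shared partner SMAD4 had 2963.4 to 3452.0 and 2287.3 to 2783.4, both without overlap and without a call (DESeq2 adjusted p = 0.201 and 0.213). Of the other SMADs of the BMP branch, SMAD1 had 356.6 to 434.1 in EV and 463.9 to 486.5 in HDAC8 libraries (DESeq2 adjusted p = 0.682) and SMAD5 had a ratio of 1.06 (0.822 to 1.37).

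Inside the cell the pathway is braked by inhibitory SMADs, by the corepressors SKI and SKIL and by the ubiquitin ligases SMURF1 and SMURF2. SMURF2 rose, with 1980.8, 1359.8 and 1910.2 normalized counts in EV and 3245.0, 4194.9 and 4022.6 in HDAC8 libraries. The lowest HDAC8 library was well above the highest EV library, and the rise was 2.18-fold (1.68 to 2.83) or 1.13 on the log2 scale (SE 0.19, DESeq2 adjusted p = 2.32e-07). SMURF1 had 2023.8 to 2484.3 in EV and 2943.2 to 3153.6 in HDAC8 libraries and missed the threshold (log2 fold change 0.43, DESeq2 adjusted p = 0.0550). SKI had 5129.8, 6172.4 and 4782.8 in EV and 4859.4, 4932.3 and 5717.0 in HDAC8 libraries, which overlapped fully (ratio 0.964, 0.781 to 1.19, DESeq2 adjusted p = 0.919). SKIL, SMAD7 and SMAD6 were not called either, with ratios of 1.31 (0.986 to 1.74), 1.06 (0.720 to 1.55) and 0.587 (0.293 to 1.18).

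Of the proteins that act outside the cell or at its surface, FSTL1 fell and NOG rose. FSTL1, a secreted follistatin-like glycoprotein, had 5339.5, 6181.7 and 6323.5 normalized counts in EV and 2520.8, 3165.6 and 3117.7 in HDAC8 libraries. The groups were far apart, and the level was 2.03-fold lower (log2 fold change -1.02, SE 0.16, DESeq2 adjusted p = 5.51e-09). NOG, which encodes the BMP antagonist noggin, had 0, 0 and 3.0 in EV and 36.8, 26.6 and 21.8 in HDAC8 libraries, from 3 counts in all EV and 89 counts in all HDAC8 libraries. The ratio was 29.4, with an interval of 9.75 to 145 that covers counting error only, and the DESeq2 adjusted p was 0.0494. In EV libraries NOG lay far under the other called genes, and in HDAC8 libraries its level was close to that of INHBE (21.5 to 41.0). The call of NOG was not made by edgeR (adjusted p = 0.191). It was lost without EV replicate 1 or 2 or any 1 of the HDAC8 libraries (DESeq2 adjusted p from 0.119 to 0.167). BAMBI had 2785.9 to 3143.6 in EV and 2372.0 to 2638.2 in HDAC8 libraries, apart but not called (DESeq2 adjusted p = 0.265). CHRD, GREM1 and FST, which bind BMPs or activin, had at most 78.7, 58.4 and 31.6 normalized counts in any library, and FSTL3 had 129.1 to 241.9 in EV and 230.4 to 337.8 in HDAC8 libraries. None of these 4 was called by DESeq2, edgeR or limma-voom.

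Of the ID genes, whose products keep basic helix-loop-helix factors from binding DNA, ID1 and ID3 fell. ID3 had 2359.4, 2978.3 and 2219.5 normalized counts in EV and 1445.9, 1558.8 and 1470.1 in HDAC8 libraries, and ID1 had 1042.3, 1087.1 and 980.2 in EV and 503.6, 735.3 and 474.8 in HDAC8 libraries. For both genes all HDAC8 values were under all EV values. ID3 was 1.69-fold lower (log2 fold change -0.76, SE 0.18, DESeq2 adjusted p = 6.60e-04) and ID1 was 1.81-fold lower (log2 fold change -0.86, SE 0.25, DESeq2 adjusted p = 0.00820). The ID1 call was lost without EV replicate 1, EV replicate 2 or HDAC8 replicate 3 (DESeq2 adjusted p = 0.0645, 0.0655 and 0.0846). ID2 had 281.1 to 410.8 in EV and 132.5 to 258.1 in HDAC8 libraries, apart but not called (log2 fold change -0.81, SE 0.39, DESeq2 adjusted p = 0.181). ID4 overlapped between groups, with a ratio of 0.903 (0.665 to 1.23).

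TGFBI, an extracellular matrix protein named for its induction by TGF-beta, had the steepest rise among the pathway genes with a mean of at least 50. It lies on chromosome 5 (136028988 to 136063818, plus strand) and had 29.4, 59.8 and 30.5 normalized counts in EV and 397.6, 458.8 and 441.0 in HDAC8 libraries. The lowest HDAC8 value was more than 6-fold above the highest EV value. TGFBI was 10.8-fold higher (6.02 to 19.4) or 3.43 on the log2 scale (SE 0.43, DESeq2 adjusted p = 1.81e-13).

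The share of each paralog in the summed per-kb level of its family was computed in each library, as a description without a test. TGFB1 made up 87.4% ± 2.4 of the 3 TGF-beta ligands in EV and 88.5% ± 2.4 in HDAC8 cells (SD, n = 3), a difference of less than the SD, while the scarce TGFB2 went from 1.15% ± 0.54 to 0.173% ± 0.21 without overlap. ID3 made up 67.6% ± 3.7 and 67.0% ± 3.0 of the 4 ID genes, and ID4 went from 6.23% ± 1.4 to 9.27% ± 0.87 without overlap, while the summed level of the 4 went from 3905 ± 407 to 2349 ± 201 normalized counts per kb. Of these families, the next were chosen after their values had been seen. Among the 4 latent TGF-beta binding proteins LTBP1 went from 23.7% ± 4.9 to 46.8% ± 3.7 and LTBP3 from 57.8% ± 3.8 to 27.9% ± 2.9. The summed level of these 4 genes was 1110 ± 214 in EV and 1622 ± 201 in HDAC8 cells, so the share of LTBP3, which was not called, was taken of a larger sum. Among BMP2, BMP4, BMP6, BMP7 and BMP8B the share of BMP7 went from 50.2% ± 2.3 to 8.99% ± 1.2 and that of BMP8B from 41.1% ± 2.4 to 66.1% ± 2.4. BMP2 and BMP6 went from 4.18% ± 1.1 and 2.27% ± 0.88 to 14.7% ± 2.4 and 9.90% ± 1.3. The summed level of these 5 ligands was 1345 ± 212 in EV and 1333 ± 25 in HDAC8 cells, a difference smaller than the SD. With the union of exons as length it was 1158 ± 171 and 1301 ± 22. The makeup thus shifted, while the EV libraries were too far apart to tell whether the total stayed the same.

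**Figure D4:**
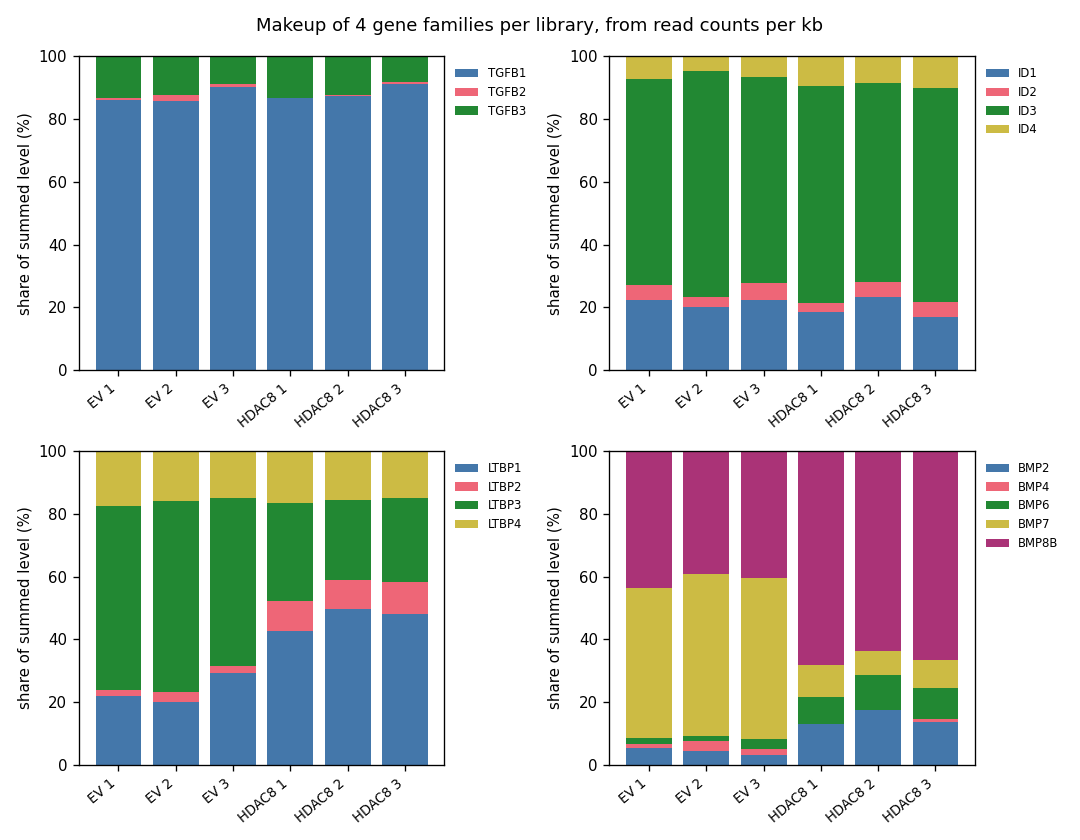
Share of each gene in the summed level of its family (y axis, %, from normalized read counts per kb) in each of the 6 libraries. TGFB1 and ID3 hold similar shares in all libraries, the share of LTBP1 goes from 23.7% to 46.8% and that of LTBP3 from 57.8% to 27.9%, and BMP7 shrinks from 50.2% of the BMP ligands in EV to 8.99% in HDAC8 cells on average.

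Other genes of the pathways were described with a list of 70 genes that act on the same ligands, receptors and SMADs, of which 51 were tested. DESeq2 called 5 of them higher and 4 lower (17.6%, beside 11.0% of all genes). CRIM1, a membrane protein that binds BMPs, had 403.7, 657.5 and 617.7 normalized counts in EV and 1485.3, 1784.1 and 1616.0 in HDAC8 libraries (log2 fold change 1.54, SE 0.24, DESeq2 adjusted p = 7.53e-09). NRP1, a neuropilin that can bind TGF-beta, had 2810.3, 2674.8 and 2684.5 against 7222.9, 7860.3 and 8289.1 (log2 fold change 1.52, SE 0.14, DESeq2 adjusted p = 3.37e-26). For both genes the HDAC8 values were more than 2-fold above the EV values. ITGB8, the beta subunit of an integrin that releases TGF-beta from its latent form, had 1215.3, 1121.7 and 1124.0 against 2196.7, 3537.4 and 3358.3 (log2 fold change 1.39, SE 0.21, DESeq2 adjusted p = 1.05e-09), with HDAC8 replicate 1 the lowest of its group.

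The falls in this list included NBL1, a secreted BMP antagonist, with 9200.4, 12880.8 and 8780.4 normalized counts in EV and 6535.4, 6035.3 and 5908.7 in HDAC8 libraries (log2 fold change -0.74, SE 0.17, DESeq2 adjusted p = 1.66e-04). NEDD4L, a ubiquitin ligase for SMAD2 and SMAD3, had 11792.6, 11928.2 and 11709.2 against 6518.3, 8287.4 and 7695.6 (log2 fold change -0.66, SE 0.14, DESeq2 adjusted p = 4.77e-05). Both genes had groups that were apart. RGMB, a BMP coreceptor, had 1900.1, 1513.9 and 2215.5 against 1091.1, 1370.3 and 1207.6 (log2 fold change -0.62, SE 0.21, DESeq2 adjusted p = 0.0278). The fall of RGMB was no longer called without EV replicate 1, EV replicate 3, HDAC8 replicate 1 or HDAC8 replicate 3 (log2 fold changes -0.61, -0.49, -0.54 and -0.61), by limma-voom (adjusted p = 0.0604) or with size factors from total counts (-0.579), that of NBL1 without EV replicate 2 (-0.55) and that of NEDD4L without HDAC8 replicate 1 (-0.57).

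Target genes of both SMAD branches were read from lists written from general knowledge. Of 32 genes known to answer to SMAD2 and SMAD3, 29 were tested, and 11 were higher and 2 lower (44.8%, beside 11.0% of all genes tested). Without the genes that also belong to the 56 pathway genes, 9 of 25 were higher and 2 lower. CCN2, a matricellular protein also known as a target of other pathways, had 200.3, 294.2 and 256.1 normalized counts in EV and 3522.9, 3817.0 and 3801.5 in HDAC8 libraries (log2 fold change 3.89, SE 0.19, DESeq2 adjusted p = 2.06e-86). TGM2, a transglutaminase that crosslinks matrix proteins, had 8.4, 81.3 and 90.6 against 868.8, 752.7 and 902.7 (log2 fold change 3.81, SE 0.85, DESeq2 adjusted p = 1.86e-04). For both genes every HDAC8 library was many times above the EV libraries, of which EV replicate 1 was the lowest. The 2 genes that fell were SNAI2, a transcription factor of neural crest and of epithelial-mesenchymal transition, and CDKN2B, a cell cycle inhibitor. SNAI2 had 762.3, 679.9 and 851.1 in EV and 133.4, 259.1 and 111.1 in HDAC8 libraries (log2 fold change -2.19, SE 0.36, DESeq2 adjusted p = 4.16e-08). CDKN2B had 1675.7, 1683.9 and 1969.3 against 971.4, 1119.4 and 992.0 (log2 fold change -0.79, SE 0.19, DESeq2 adjusted p = 6.53e-04), and for both genes the groups were apart.

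Of 21 genes known to answer to SMAD1 and SMAD5, 19 were tested, and 1 was higher (NOG) and 3 were lower (SMAD9, ID1 and ID3). This is 21.1% of a short list, beside 11.0% of all genes tested. All 4 are among the 56 pathway genes and were described above, where the calls of NOG and ID1 were lost without some of the libraries. The 10 tested genes of this list that are not among them gave 0 calls by DESeq2, with 2 at an unadjusted p under 0.05, 0 calls by edgeR and 1 lower by limma-voom. One of those with a small p was HEY1, a transcriptional repressor that Notch and BMP signals induce, with 6236.8 to 7101.6 normalized counts in EV and 4577.2 to 5278.5 in HDAC8 libraries (log2 fold change -0.43, DESeq2 adjusted p = 0.0188), under the minimum change and named after its values were seen. The difference between the SMAD2/3 and the SMAD1/5 list was not tested.

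**Figure D5:**
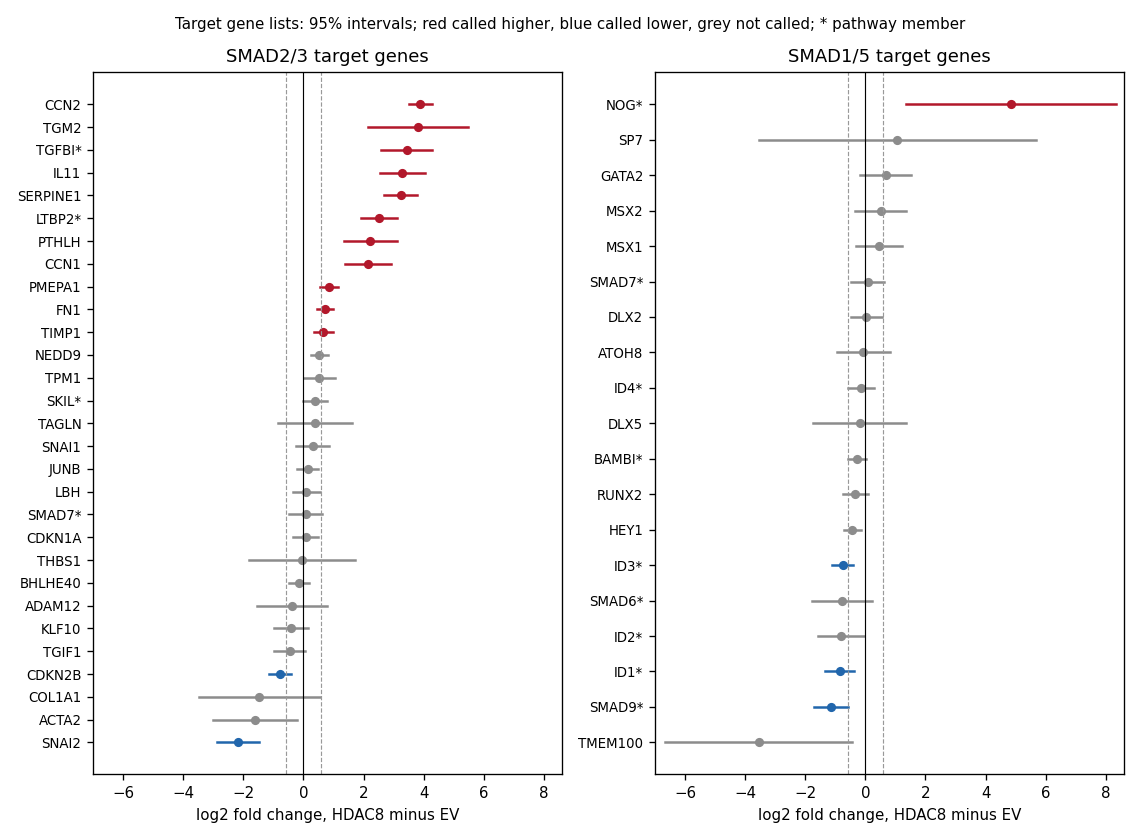
Log2 fold change (HDAC8 minus EV, x axis) with 95% interval of the 29 tested SMAD2/3 targets (left) and the 19 tested SMAD1/5 targets (right), red when called higher, blue when called lower, grey otherwise, with a star on genes that are among the 56 pathway genes and dashed lines at the minimum change of 0.58. On the left 11 genes are red and 2 blue, and on the right NOG is red and SMAD9, ID1 and ID3 are blue.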

How the data were processed

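RNA-seq was performed on 3 EV and 3 HDAC8 libraries of WM164 cells. Paired reads were trimmed (Trimmomatic), aligned against the transcriptome (STAR) and quantified (RSEM) by the authors. The authors deposited RSEM's expected counts per gene, which share a read between the genes it could come from and are not scaled between libraries. The genome build, annotation release and strand of counting are not given in the sources used here, so overlapping, antisense and near-identical genes are uncertain. The labels and the methods of the study name different RNA kits. Of 60504 genes, 3508 had an identifier and no symbol and were kept under it. Positions and lengths came from GENCODE 44 (GRCh38) by identifier (56558 matched). CCN1 and CCN2 are listed under older symbols and were matched by identifier, 2 genes in all.

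Libraries were grouped and numbered by their labels. Expected counts were rounded to integers, and the HDAC8 and EV groups were compared by DESeq2 1.42.0 (R 4.3.3, Wald test, two-sided) over the 26162 genes whose counts summed to 10 or more, with size factors by median of ratios and no covariates. P-values were Benjamini-Hochberg adjusted over the table, 5141 genes had no adjusted p and were left out of counts of calls, and intervals are at the 95% level. The floor was 3 counts per library, which is 2.57 to 3.27 normalized counts, and it covers counting error only, as does the interval of NOG, since no molecular identifiers set reads of 1 molecule apart. Named genes were every called pathway gene, the gene with the highest mean of each role, HDAC8, and of the other lists the 3 largest rises and falls with a mean of at least 50 and groups that did not overlap. The pathway genes and lists were chosen with earlier results of these data known. Alternatives were edgeR 4.0.16, limma-voom (limma 3.58.1), upper-quartile or total-count size factors, the table unfiltered or limited to genes with 10 or more counts in each library, a replicate block, a test against the minimum change, each library left out in turn, and length by the union of exons. Alternatives for normalized values were not needed. All 3 tools were tested on simulated data, where DESeq2 called more unchanged genes than its threshold states. Libraries of a group differed by more than sampling noise.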

Additional observations from a re-analysis of the deposited data

How the results depend on the processing

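The counts of called pathway genes kept within 1.5 times of 9 higher and 9 lower under edgeR (8 and 9), limma-voom (8 and 10), size factors from total counts (11 and 8) or upper quartiles (8 and 9), and without a filter (9 and 9) or with 10 or more counts required in each library (8 and 9). A test against the minimum change itself left 5 higher (LTBP1, LTBP2, BMP2, BMP6 and TGFBI) and 3 lower (INHBE, GDF15 and BMP7). In the other lists it left 3 higher and 0 lower of the other pathway genes, 1 lower SMAD2/3 target, and 0 higher and 0 lower SMAD1/5 targets. The single higher SMAD1/5 target (NOG) also went to 0 under edgeR, upper-quartile size factors and the filter of 10 counts, which removed the gene. Leaving out 1 library at a time gave 7 to 10 higher and 6 to 10 lower pathway genes, 5 to 6 higher and 2 to 4 lower other pathway genes (2 without EV replicate 1, EV replicate 3 or HDAC8 replicate 1), 11 to 12 higher and 2 to 3 lower SMAD2/3 targets, and 0 to 1 higher and 2 to 3 lower SMAD1/5 targets. The fall of 9 to 6 lower pathway genes came without EV replicate 1. SKI, which was not called, turned from -0.053 to 0.059 on the log2 scale without EV replicate 2, within a range of -0.13 to 0.059 over the libraries left out. Of 427 values for 33 named genes, 388 stayed on their side of 0 and of the threshold, 35 lost the call, 3 gained it (TGFB1) and 1 turned. Apart from the construction of the stricter test and filter, the cause was not tested.

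With a replicate block 8 pathway genes were higher and 8 lower, and BMP1, BMPR1A, SMAD2 and RGMB lost their call (DESeq2 adjusted p = 0.0752, 0.0503, 0.0592 and 0.0846) while BMP4 gained one (0.00399). Pairing by number was not seen, since the deviations of equally numbered libraries from their group means correlated at 0.0166, -0.037 and 0.0075.

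With length taken as the union of exons, TGFB3 made up 9.05% of its family in EV cells, ID3 57.4% and 56.6% and ID1 28.8% and 26.0% in EV and HDAC8 cells, LTBP1 36.4% and 57.6%, LTBP3 42.3% and 16.3%, BMP7 43.2% and 6.83%, and BMP8B 47.7% in EV cells. For the latent TGF-beta binding proteins and BMP ligands this was added after the data had been seen. Depth limited TGFB2, BMP4, INHBB, NOG, CHRD, GREM1, FST, NODAL and ACVRL1, and 10 pathway genes had a mean under 50. Over the 46 others with a mean of at least 50 the median log2 fold change was 0.012.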
